A study of Mus musculus with 9 samples.

Results

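The H3K4me3 list is the set of regions called from 1 chromatin immunoprecipitation library made with a rabbit monoclonal antibody (clone C42D8) to histone H3 trimethylated at lysine 4. Every distinct region of that list on chromosomes 1 to 19, X and Y was kept, which gave 16899 peaks of the 282301 in the 7 lists of the series. The cells were MYCN-driven T cell lymphoma cells taken from the thymus of C57BL/6J mice, and the assay was ChIPmentation, in which the sequencing adaptors are inserted into the captured chromatin by the Tn5 transposase. The other 6 lists came from the same kind of cells and used antibodies to the methyltransferase EZH2, its Polycomb partner SUZ12, the mark H3K27me3, the transcription factor N-MYC, the acetyltransferase p300 and the mark H3K27ac, and they serve here as context. There was 1 library per antibody, so no difference between libraries was tested. Shares are given with 95% Wilson intervals, which cover counting error only and treat genes or peaks as independent, although neighbours can share a peak. The labels used here do not give the number of mice behind the library, the promoter that drives MYCN, or a non-lymphoma thymus for comparison, and the number of reads behind the list is unknown. A gene without a peak is therefore a gene without a call in this library, and absence of the mark was not shown.

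Trimethylation of H3 lysine 4 is deposited by the SET1 and MLL families of methyltransferases together with the shared subunits WDR5, RBBP5, ASH2L and DPY30, and it is removed by the KDM5 demethylases. The mark sits on the nucleosomes round the starts of genes that are transcribed or held ready for transcription, and it is most regular at promoters rich in CpG dinucleotides, where the CXXC-domain protein CXXC1 can bind unmethylated CpG. In T cells and other cell types the broadest H3K4me3 regions are known to lie over genes that define the cell's identity.

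To show what kinds of promoter carried or lacked a peak, the 250 bases before the start of 7 genes are printed from RefSeq (GRCm38.p6), 5′ to 3′ on the gene's own strand, with each CpG dinucleotide in capitals. Ikzf1, which encodes the lymphoid factor Ikaros (chr11:11685675-11685924, plus strand), stands for CpG-rich promoters with a wide peak. Cd3d, a chain of the CD3 complex (chr9:44981536-44981785, plus strand), Lcp2, the T-cell adaptor SLP-76 (chr11:34046678-34046927, plus strand), and Hbb-bs, an adult beta-globin (chr7:103827929-103828178, minus strand), stand for CpG-poor promoters with a peak. Hoxd13, a posterior Hox gene (chr2:74667975-74668224, plus strand), and Neurod1, a neuronal differentiation factor (chr2:79456637-79456886, minus strand), are CpG-rich and had none. Rag1, a subunit of the V(D)J recombinase (chr2:101649533-101649782, minus strand), is CpG-poor and had none.
Ikzf1: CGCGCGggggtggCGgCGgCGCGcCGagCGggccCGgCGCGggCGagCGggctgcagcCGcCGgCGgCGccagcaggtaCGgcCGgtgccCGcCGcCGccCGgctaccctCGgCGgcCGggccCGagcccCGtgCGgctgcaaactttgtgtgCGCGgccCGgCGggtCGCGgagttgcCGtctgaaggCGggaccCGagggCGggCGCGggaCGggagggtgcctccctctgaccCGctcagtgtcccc
Cd3d: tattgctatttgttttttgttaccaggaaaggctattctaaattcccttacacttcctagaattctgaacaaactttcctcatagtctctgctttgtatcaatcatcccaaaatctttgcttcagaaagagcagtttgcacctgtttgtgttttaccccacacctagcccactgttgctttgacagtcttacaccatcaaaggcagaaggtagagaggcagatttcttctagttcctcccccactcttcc
Lcp2: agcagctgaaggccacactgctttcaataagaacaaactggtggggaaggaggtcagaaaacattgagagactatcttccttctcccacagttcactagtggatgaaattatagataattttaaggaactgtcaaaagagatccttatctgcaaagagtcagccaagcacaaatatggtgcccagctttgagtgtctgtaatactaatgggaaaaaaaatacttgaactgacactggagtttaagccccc
Hbb-bs: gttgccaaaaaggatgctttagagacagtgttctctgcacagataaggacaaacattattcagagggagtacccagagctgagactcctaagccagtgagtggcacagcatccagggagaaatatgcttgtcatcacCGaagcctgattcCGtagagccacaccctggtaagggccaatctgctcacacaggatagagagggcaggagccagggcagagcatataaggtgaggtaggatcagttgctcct
Hoxd13: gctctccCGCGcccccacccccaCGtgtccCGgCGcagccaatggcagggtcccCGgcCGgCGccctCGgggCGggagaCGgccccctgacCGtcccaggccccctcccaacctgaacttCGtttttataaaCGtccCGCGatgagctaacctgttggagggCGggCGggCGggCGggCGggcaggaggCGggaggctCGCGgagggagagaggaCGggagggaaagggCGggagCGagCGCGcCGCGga
Neurod1: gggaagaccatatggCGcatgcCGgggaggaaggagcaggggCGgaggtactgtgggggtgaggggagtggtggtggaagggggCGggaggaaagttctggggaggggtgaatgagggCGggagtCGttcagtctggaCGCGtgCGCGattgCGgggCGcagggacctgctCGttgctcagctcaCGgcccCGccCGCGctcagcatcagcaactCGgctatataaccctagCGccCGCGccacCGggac
Rag1: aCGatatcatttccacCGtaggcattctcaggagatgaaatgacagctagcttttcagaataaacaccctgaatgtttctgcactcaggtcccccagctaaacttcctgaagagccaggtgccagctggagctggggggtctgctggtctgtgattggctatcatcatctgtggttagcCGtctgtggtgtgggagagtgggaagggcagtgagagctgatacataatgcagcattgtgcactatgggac
The printed bases hold 44 CpG in Ikzf1, 31 in Hoxd13 and 22 in Neurod1, against 0 in Cd3d, 0 in Lcp2, 2 in Hbb-bs and 3 in Rag1. The peak over the Ikzf1 start was 9875 bp wide with a fold enrichment of 38.9, the peak caller's ratio of signal to local background. The Cd3d, Lcp2 and Hbb-bs starts had peaks of 9066, 5768 and 1780 bp with fold enrichments of 36.3, 26.5 and 19.8. At the Hoxd13 and Neurod1 starts the lists of EZH2, SUZ12 and H3K27me3 each had a peak, and at the Rag1 start H3K27me3 had one.

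Across 17492 protein-coding genes whose start is known, CpG counts were taken in the 300 bases from 250 before to 50 after the start lying farthest upstream in the RefSeq promoter table. Of these starts 8936 had an H3K4me3 peak within 1 kb. The median promoter with a peak held 22 CpG (quartiles 15 and 29), and the median promoter without one held 4 (quartiles 2 and 9), a difference of 18. The share of genes with a peak climbed with every step in CpG count up to about 20 and was level beyond that. It was 1.21% (0.676 to 2.15%) of 911 promoters with no CpG, 11.8% (10.4 to 13.4%) of those with 3 or 4, 36.3% (33.7 to 39.0%) of those with 7 to 9, 75.8% (73.9 to 77.6%) of those with 15 to 19, 83.4% (81.7 to 85.0%) of those with 20 to 24 and 85.2% (83.8 to 86.5%) of 2615 promoters with 30 or more. Among promoters that had a peak, the median fold enrichment was 15.02 and the median width 1950 bp with 1 or 2 CpG, against 28.3 and 2651 bp with 25 to 29 CpG. The 11 promoters with a peak and no CpG had medians of 20.2-fold and 2722 bp.

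**Figure D1:**
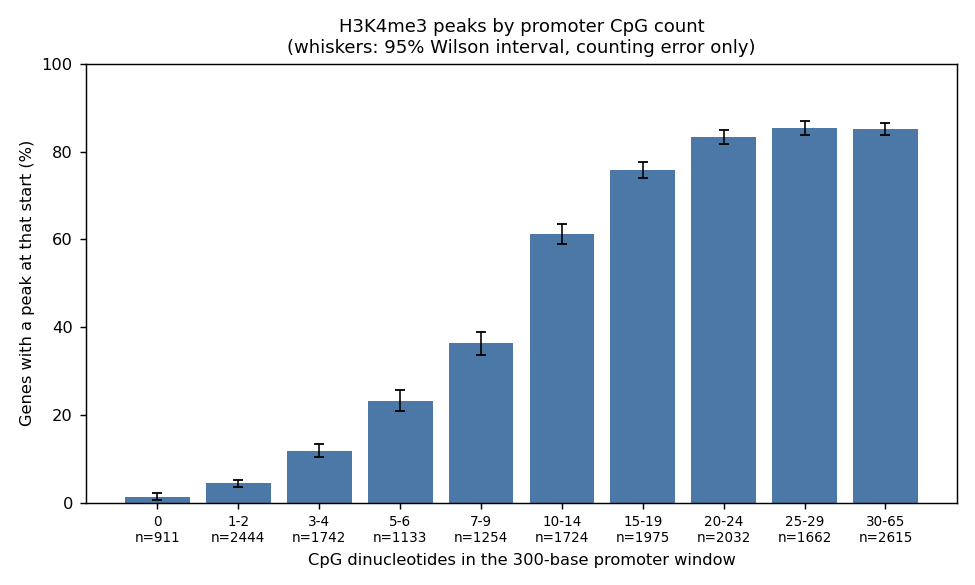
Share of protein-coding genes with an H3K4me3 peak within 1 kb of the start (vertical axis, percent) by the number of CpG dinucleotides in the 300-base promoter window (horizontal axis, with the number of promoters in each class). Bars give the share and whiskers its 95% Wilson interval. The share goes from 1.21% with no CpG to 83.4% at 20 to 24 CpG and stays near that height at higher counts.

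Both exceptions to that relation were sizeable groups. Of 6309 promoters with at least 20 CpG, 965 had no H3K4me3 peak, and at 90.9% (88.9 to 92.5%) of those the H3K27me3 list had a peak, against 15.4% (14.5 to 16.4%) of the 5344 CpG-rich promoters with an H3K4me3 peak. SUZ12 lay at 68.5% and 10.9% of those groups, and H3K27ac at 2.18% and 93.4%. Of 4365 promoters with at most 3 CpG, 219 had an H3K4me3 peak (5.02%, 4.41 to 5.71%). H3K27ac had a peak at 88.6% of those 219, close to its 93.1% over all promoters with an H3K4me3 peak. EZH2 and N-MYC had peaks at 22.4% and 21.0% of the 219, below their 73.5% and 64.7% over all promoters with an H3K4me3 peak.

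Short sequence elements were counted on both strands of the same windows as a description of the promoters, with no claim that a match is a bound site. The TATA element TATAAA was in 13.3% of all 17492 windows, in 6.22% of those with an H3K4me3 peak and in 20.8% of those without. The GC box GGGCGG was in 46.3% of all windows, 68.3% with a peak and 23.4% without. The ETS element CCGGAAG was in 11.9% of all windows, 20.8% with a peak and 2.66% without, and 89.1% (87.6 to 90.3%) of the windows that held it had a peak. The E-box CACGTG, which MYC proteins bind, was in 7.91% of all windows, 10.8% with a peak and 4.89% without. The cyclic-AMP element TGACGTCA was in 2.33% of all windows, 3.57% with a peak and 1.03% without. The CCAAT box CCAAT was in 39.2%, 39.6% and 38.8%, so that it differed little between the groups. All of these apart from TATAAA and CCAAT contain CpG themselves, and the part of CpG content in their shares was not tested. Elements can overlap each other, and each was counted without regard to the rest.

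At gene level, a peak within 1 kb of either end of the gene was used as the call, because strand was known for 79.9% of protein-coding genes. By that call 10944 of 21887 protein-coding genes, 50% (49.3 to 50.7%), had an H3K4me3 peak. Another 1054 genes (4.82%) had a peak inside the gene and none at an end, so that 54.8% had a peak at an end or inside, and 9889 (45.2%) had neither. Over RefSeq genes of every class, the share with a peak at an end was 28.5%. For 618 of the 1054 genes of the inside group (58.6%) the peak lay within 1 kb of another transcript start in the RefSeq promoter table, and these genes were long, with a median of 50784 bp against 21447 bp for genes with a peak at an end and 10031 bp for genes with none. Of the genes with a peak at an end, 3527 (32.2%) shared their highest peak with an end of another protein-coding gene, and 1146 (10.5%) had 2 or more peaks there.

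The peaks belonged to starts rather than finishes. Of 17492 genes with known strand, 8672 (49.6%) had a peak within 1 kb of the start and 1272 (7.27%) within 1 kb of the finish. In 236 genes the finish had a peak and the start did not, and for 173 of those (73.3%) the same peak also reached an end of another protein-coding gene. Round 4196 starts that lay inside a peak and had no other protein-coding end within 5 kb, the peak was lopsided. It reached a median of 606 bp upstream (quartiles 368 and 911) and 1744 bp into the gene (quartiles 1269 and 2306), and in 95.5% of these genes the downstream arm was the longer. The summit lay downstream of the start in 4016 of them (95.7%), at a median of 352 bp (quartiles 243 and 502). The same shape held in the 292 of these starts that sat in wide peaks of at least 4260 bp, with medians of 1262 bp upstream and 3691 bp downstream.

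**Figure D2:**
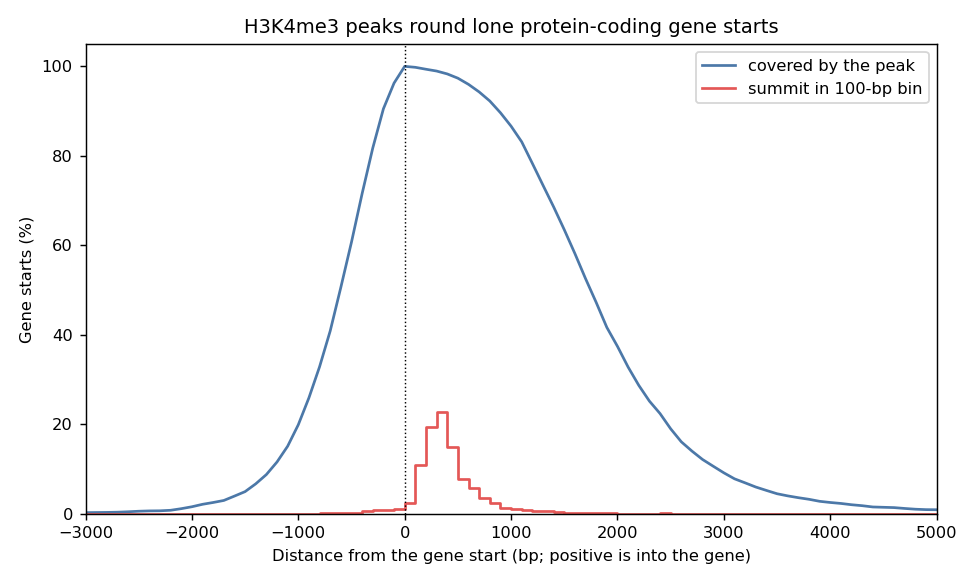
H3K4me3 peaks round 4196 protein-coding gene starts with no other protein-coding end within 5 kb, by distance from the start (horizontal axis, bp, positive into the gene). The blue line gives the percent of starts whose peak covers that position, and the red steps the percent of summits in each 100-bp bin. Coverage is 60.7% at 500 bp upstream and 97.4% at 500 bp downstream, and the summits collect just downstream of the start.

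Peak width and fold enrichment split the list into a large group of wide, high peaks at gene ends and a group of small peaks elsewhere. Of the 16899 peaks, 11528 (68.2%, 67.5 to 68.9%) lay within 1 kb of an end of a RefSeq gene of any class, 4057 (24.01%) lay 1 to 10 kb away, and 1314 (7.78%, 7.38 to 8.19%) lay farther than 10 kb from any end. Median widths were 2200 bp, 388 bp and 673 bp, and median fold enrichments 23.1, 4.54 and 5.87. Peaks at an end were thus 5.02 times as wide in the median as all other peaks (438 bp). By deciles of width, the share within 1 kb of a protein-coding end went from 18.05% (16.3 to 19.95%) in the narrowest decile through 43.3% in the fourth and 67.5% in the fifth to 89.6% (88.1 to 91.0%) in the ninth. The decile of widest peaks stood at 86.6% (84.9 to 88.2%). Peaks that reached 2 or more protein-coding genes were wider, with a median of 2796 bp for 2005 peaks against 2225 bp for the 8098 that reached 1.

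**Figure D3:**
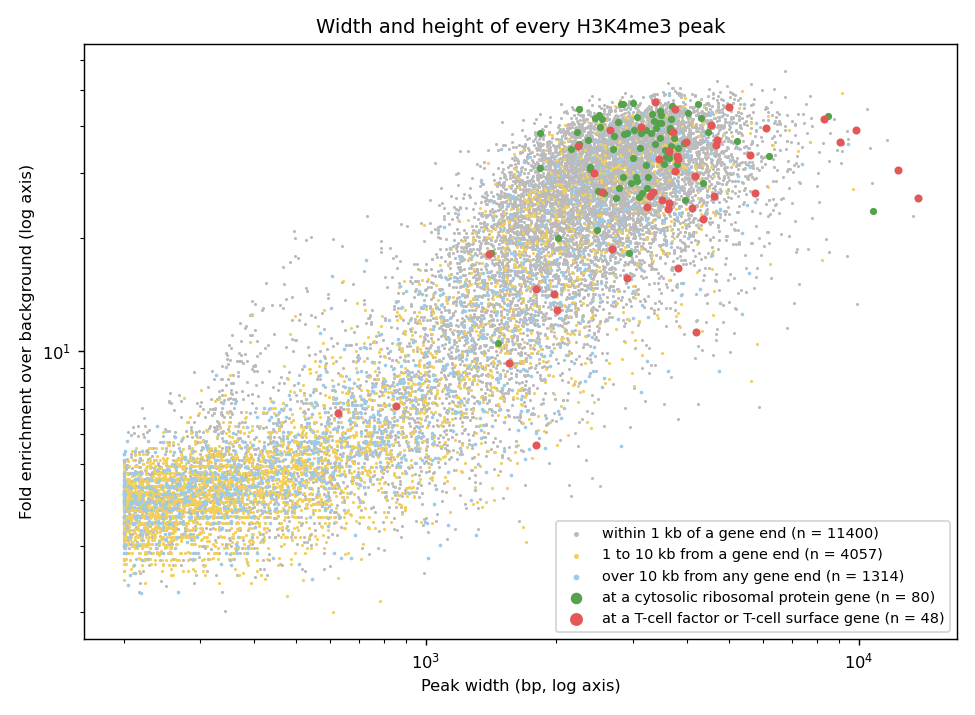
Width (horizontal axis, bp, log scale) and fold enrichment (vertical axis, log scale) of each of the 16899 H3K4me3 peaks. Grey points lie within 1 kb of a gene end, yellow points 1 to 10 kb away and blue points over 10 kb away, and peaks at cytosolic ribosomal protein genes are green and at T-cell genes red. Peaks away from gene ends gather at small widths and low enrichments, and the red points extend to the widest peaks of the list.

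The widest 5% of the list, 845 peaks of 4260 to 13687 bp, and the narrowest 5%, 868 peaks of 200 to 221 bp, differed in nearly every property. Of the wide peaks 725 (85.8%) lay within 1 kb of a protein-coding end, against 145 (16.7%) of the narrow peaks, and 30 (3.55%) against 97 (11.2%) lay farther than 10 kb from any end. The median fold enrichment was 33.2 against 3.90. Of the wide peaks, 263 (31.1%) reached 2 or more protein-coding genes, against 2005 (11.9%) of all peaks. The H3K27ac list, which overlapped 81.3% of all H3K4me3 peaks, overlapped 99.9% of the wide and 40.6% of the narrow peaks. For p300 the values were 54.4% of all peaks, 96.2% of wide and 7.37% of narrow. For EZH2 they were 48.5%, 94.9% and 7.95%, and for N-MYC 43.7%, 82.7% and 3.11%. For H3K27me3 they were 12.1%, 8.40% and 11.3%, and for SUZ12 8.37%, 5.80% and 7.83%. By deciles of width, the overlap with H3K27me3 was largest in the fourth, at 22.5% of peaks of 629 to 1172 bp. A longer peak has more bases in which to meet a peak of another list, and overlaps were not adjusted for width.

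The widest peak of all, 13687 bp at chr3:89383050-89396736, covered Zbtb7b, the factor ThPOK that directs thymocytes to the CD4 lineage. The next, 13351 bp at chr13:19336195-19349545, lay in the T-cell receptor gamma locus over Trgv1, Trgv2, Trgj4 and Trgc4 and touched no protein-coding gene. Tcf7, the T-cell factor TCF-1, came after it with 12310 bp (chr11:52272925-52285234). Gfi1, a transcriptional repressor of lymphoid and myeloid cells, had 10749 bp, Pik3cd, the leukocyte PI3-kinase subunit p110 delta, 9905 bp, and Ikzf1 9875 bp. The rest of the 10 widest lay over several genes or a broadly used gene: 11598 bp across Eno3, Pfn1, Rnf167 and Slc25a11, 10799 bp across Med22, Rpl7a, Surf1 and Surf2, 10644 bp over H2ax, and 10473 bp across Rhof and Setd1b. Fold enrichments in these 10 peaks went from 13.3 at Pik3cd to 44.5 at Setd1b, so that the widest peaks were not the highest.

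None of the 10 highest peaks was among those 10 widest. The highest fold enrichment was 56.1 at Kmt2e, which encodes a SET-domain and PHD-finger protein that binds H3K4me3 (chr5:23430675-23437429, 6755 bp). Pabpc1, a poly(A)-binding protein, followed with 52.6, then Prr14l with 52.0, Pcbp1, an RNA-binding protein, with 51.6, and Ing1, a reader of H3K4me3, with 51.1. Atxn2l and Khdrbs1, which encode RNA-binding proteins, each had 50.7, Arpc4, an actin-nucleation subunit, 50.5, and Bicra and Ppp1r12a 50.1 each. Their widths lay between 3626 bp at Prr14l and 6755 bp at Kmt2e. All 10 overlapped peaks of EZH2, p300 and H3K27ac, and 8 of the 10 overlapped N-MYC, the exceptions being Arpc4 and Bicra. Over all H3K4me3 peaks the shares for EZH2, p300, H3K27ac and N-MYC were 48.5%, 54.4%, 81.3% and 43.7%. Over the wide peaks they were 94.9%, 96.2%, 99.9% and 82.7%, so these overlaps were not particular to the highest peaks.

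Genes of the T-cell lineage had peaks in most cases and the peaks were broad. Of 24 T-cell transcription factors, 21 (87.5%, 69.0 to 95.7%) had a peak at an end, against the 50% of all protein-coding genes. Their median peak was 3813 bp wide with a fold enrichment of 32.6, against 2516 bp and 26.7 over all genes with a peak, and 9 of the 21 peaks were in the widest 5%. That count was 9 of 24 for cyclins and cyclin-dependent kinases and 5 of 15 for the H3K4 methylation machinery, so broad peaks were not particular to T-cell factors. It was 9 of 81 for cytosolic ribosomal protein genes and 12 of 300 for Zfp genes. The share over all genes with a peak was not counted. Besides Zbtb7b, Tcf7 and Ikzf1, wide peaks lay at Bcl11b, which fixes T-cell commitment (8306 bp, 41.8-fold), Lef1, the partner of TCF-1 (6092 bp, 39.4-fold), Patz1 (5619 bp, 33.5-fold), Myb (5010 bp, 44.9-fold), Tox (4710 bp, 36.7-fold) and Foxp1 (4551 bp, 40.2-fold). The highest enrichment in the list was 46.4 at Tcf12, which encodes the E protein HEB (3376 bp). The lowest were 6.83 at Hes1, a Notch target (627 bp), 7.14 at Runx3 (850 bp) and 11.3 at Runx1 (4211 bp).

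Gata3 and Ets1 were T-cell factors without a peak at an end. Gata3, the factor of early T cells and of the T helper 2 lineage, and Ets1, a lymphoid ETS factor, each had a peak inside the gene that was among the widest of the list, of 9126 bp with a fold enrichment of 48.9 and of 9468 bp with 35.9. The Gata3 peak was 1392 bp from the nearest RefSeq gene end and within 1 kb of a transcript start of the promoter table, whereas the Ets1 peak was 53489 bp from any gene end and at no start of that table.

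Among 36 genes of T-cell receptor signalling and the T-cell surface, 28 (77.8%, 61.9 to 88.3%) had a peak at an end. The share over all protein-coding genes was 50%. The 28 had a median of 3649 bp and 26.5-fold. Cd3d and Cd3g, divergent CD3 chains, shared a peak of 9066 bp (36.3-fold), and Cd3e had 3798 bp (33.2-fold). Cd247, the CD3 zeta chain, had a smaller peak of 1978 bp (14.2-fold). Proximal kinases and adaptors had peaks of 3238 bp at Lck (24.3-fold), 4624 bp at Zap70 (25.9-fold), 3815 bp at Lat (32.7-fold, shared with Spns1) and 5768 bp at Lcp2. The highest fold enrichment in this list was 39.8 at Malt1, which acts with Bcl10 (35.4) in the activation of NF-kappa B. Cd4 had a peak of 2694 bp (18.7-fold). The lowest fold enrichments in this list were 5.59 at Ccr7, a homing receptor, 9.30 at Il7r, a survival receptor, and 12.9 at Cd69.

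The 8 genes of this list without a peak at an end were mainly those of immature or CD8 thymocytes. Cd8a and Cd8b1, the CD8 chains, Ptcra, the pre-T-cell receptor alpha chain, Rag1, Rag2 and Dntt, which carry out V(D)J recombination, and Ccr9, a thymic homing receptor, had no peak at an end or inside. Trat1, a T-cell adaptor, had a peak of 3279 bp (22.0-fold) inside the gene within 1 kb of a RefSeq transcript start. Rag1 and Rag2 lay within a stretch of 7.24 Mb of chromosome 2 (94438491 to 101677859) with no H3K4me3 peak, which contains 4 protein-coding genes in all, the others being Lrrc4c and Iftap.

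Markers of other cell types that a thymus sample could hold were read beside these and beside the 50% of all protein-coding genes. All 8 endothelial markers and all 8 fibroblast markers lacked a peak at an end (upper bound 32.4% each). Pecam1, Vwf and Col1a1 had peaks inside the gene of 1053, 775 and 391 bp (4.29-, 6.91- and 4.33-fold). Egfl7 had a peak inside of 1056 bp (12.4-fold) within 1 kb of a RefSeq transcript start, which overlapped N-MYC and H3K27ac peaks. Of 10 thymic epithelial markers, Epcam had a peak at an end (1648 bp, 19.3-fold). Foxn1, the master factor of that epithelium, had a peak of 791 bp (5.52-fold) inside the gene, and Krt5, Krt8, Krt14 and Aire had none. Of 8 NK-cell markers, Klrb1c, the NK1.1 gene, had a peak (2163 bp, 12.3-fold), and Ncr1, Eomes, Prf1, Gzmb, Klrd1, Klrk1 and Klre1 did not. Of 12 B-cell markers 5 had a peak (41.7%, 19.3 to 68.0%), an interval that includes the 50% of all protein-coding genes. The peaks of Cd79a (32.5-fold) and Vpreb1 (34.4-fold) also reached Arhgef1 and Top3b, and Cd79b, Cd22 and Pou2af1 had 5.75, 3.77 and 7.44. Ms4a1, Ebf1, Blk, Igll1 and Cr2 had none, and Pax5 had a peak of 257 bp inside. Of 13 myeloid markers 5 had a peak (38.5%, 17.7 to 64.5%), an interval that also includes 50%. These 5 were Cebpb with 26.0-fold, Cd68 with 10.7-fold in a peak shared with Mpdu1, and Cebpa, Cd14 and Fcgr3 with 6.81, 3.61 and 3.51. Csf1r, Lyz2, Mpo, Elane, Itgam, Adgre1 and Csf3r had none, and Spi1 had a peak of 367 bp inside. The part of other cell types in these peaks was not tested.

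Erythroid markers stood apart from those lists. Of 8 such genes 7 had a peak at an end (87.5%, 52.9 to 97.8%), against 50% of all protein-coding genes. Gata1, the erythroid master factor, had a peak inside the gene (2619 bp, 12.1-fold) within 1 kb of a transcript start. Fold enrichments were 19.8 at Hbb-bs and at Klf1, 19.1 at Epor, the erythropoietin receptor, 18.3 at Hba-a1, an alpha-globin, 13.1 at Slc4a1, the band 3 anion exchanger, and 9.38 at Alas2, the first enzyme of heme synthesis. All were below the median of 26.7 over all genes with a peak. At Slc4a1 the peak was 5163 bp wide, and at the others 1498 to 3135 bp. The part that erythroid cells in the sample play in these peaks was not tested.

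Genes for basic cell functions had peaks almost without exception, against 50% of all protein-coding genes. All 13 RNA polymerase II subunit genes had a peak (77.2 to 100%), as did 77 of 78 mitochondrial ribosomal protein genes, 36 of 37 complex I subunit genes, 81 of 84 cytosolic ribosomal protein genes and 36 of 39 proteasome subunit genes. Members without a peak at an end were of 2 kinds. Mrps2 and Psma6 had a peak inside the gene of 28.0- and 23.2-fold, 1322 and 1229 bp from the nearest gene end. Rpl10l, Rpl39l and Rpl32l, paralogs or copies of ribosomal protein genes, Psma8, a testis-specific subunit, and Psmb11, the subunit of thymic cortical epithelium, had no peak at all. Cytosolic ribosomal protein genes had the highest median fold enrichment of these lists, 35.9 with a median width of 3163 bp, and 32 of the 81 shared their peak with another protein-coding gene. Of 22 genes known as targets of MYC-family factors, 21 had a peak (95.5%, 78.2 to 99.2%). Mitochondrial ribosomal, complex I and cytosolic ribosomal genes had similar shares, 98.7%, 97.3% and 96.4%. The 21 MYC-family targets had a median of 37.0-fold and 3378 bp. The highest were Eif5a, a translation factor (48.9-fold, shared with Gps2), and Ncl, nucleolin (45.9-fold), and the widest was Ccnd2, cyclin D2 (7770 bp). Ldha, lactate dehydrogenase A, had its peak inside the gene (29.5-fold).

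Cell-cycle genes divided by member. Of 31 cyclins and cyclin-dependent kinases 24 had a peak (77.4%, 60.2 to 88.6%), against 50% of all protein-coding genes. The 24 had a median of 35.1-fold and 3869 bp, and 9 were in the widest 5%. Ccnd3, cyclin D3, had 47.8-fold and 6749 bp in a peak that also reached Taf8, and Ccnd2 and Cdk6 had 7770 and 7331 bp. Ccnd1, cyclin D1, had no peak at an end and a peak of 248 bp (3.56-fold) inside, a location that overlapped EZH2, SUZ12 and H3K27me3 peaks. All 62 replication-dependent histone genes had a peak, with a low median of 20.3-fold but a large median width of 3857 bp, and 49 of the 62 shared the peak with another protein-coding gene, since these genes lie side by side. Of 394 zinc finger genes named Zfp, 300 (76.1%, 71.7 to 80.1%) had a peak, with a median of 23.8-fold and 1896 bp.

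Most genes of the H3K4 methylation machinery had a peak of the mark themselves. Of 17 such genes 15 had a peak at an end (88.2%, 65.7 to 96.7%), against 50% of all protein-coding genes. The 15 had a median of 34.2-fold and 3723 bp. Among the methyltransferases Setd1b had 10473 bp (44.5-fold, reaching Rhof), Kmt2a 5322 bp (45.8-fold), Kmt2d 5255 bp (35.0-fold), Kmt2c 4662 bp (34.4-fold), Setd1a 3723 bp (20.7-fold) and Kmt2b 3323 bp (31.5-fold). Of the shared subunits, Wdr5 and Rbbp5 had peaks at an end (19.2- and 34.2-fold), and Ash2l and Dpy30 had peaks of 34.5- and 33.2-fold inside the gene, 5418 and 6894 bp from the nearest gene end. The erasers Kdm5a, Kdm5b and Kdm5c had 31.3-, 33.7- and 37.5-fold. Kdm1a, an H3K4 demethylase outside the KDM5 family and not an eraser of trimethylation, had 41.6-fold.

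Genes of other tissues and large sensory families were nearly empty, against 50% of all protein-coding genes with a peak at an end. None of 10 liver genes had a peak (upper bound 27.8%), and 1 of 10 muscle genes did, Ckm, the muscle creatine kinase (10.5-fold, 835 bp). Of 12 neural genes, Mbp, myelin basic protein, had 38.9-fold and 3485 bp, in a gene whose locus also gives longer transcripts in other tissues, and Syp had a peak of 266 bp. Of 12 germline genes, Gdf9 had a peak that it shared with Uqcrq and Dazl had a peak of 497 bp (3.18-fold). Among 1106 olfactory receptor genes 1 had a peak, Olfr212 (4.66-fold, 296 bp), and among 353 vomeronasal receptor genes 2 did, Vmn1r4 through a peak shared with Nt5c3 and Vmn2r29 with 234 bp. Of 38 taste receptor genes 1 had a peak, Tas1r1, which shared it with Nol9. None of 70 defensins had a peak at an end, and 2 of 109 keratins and keratin-associated genes did, Krt222 in a peak shared with Smarce1 and Krt10 (6.86-fold). How reads from near-identical copies were placed is not given in the sources used here, and its part in the low shares of these families was not tested.

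**Figure D4:**
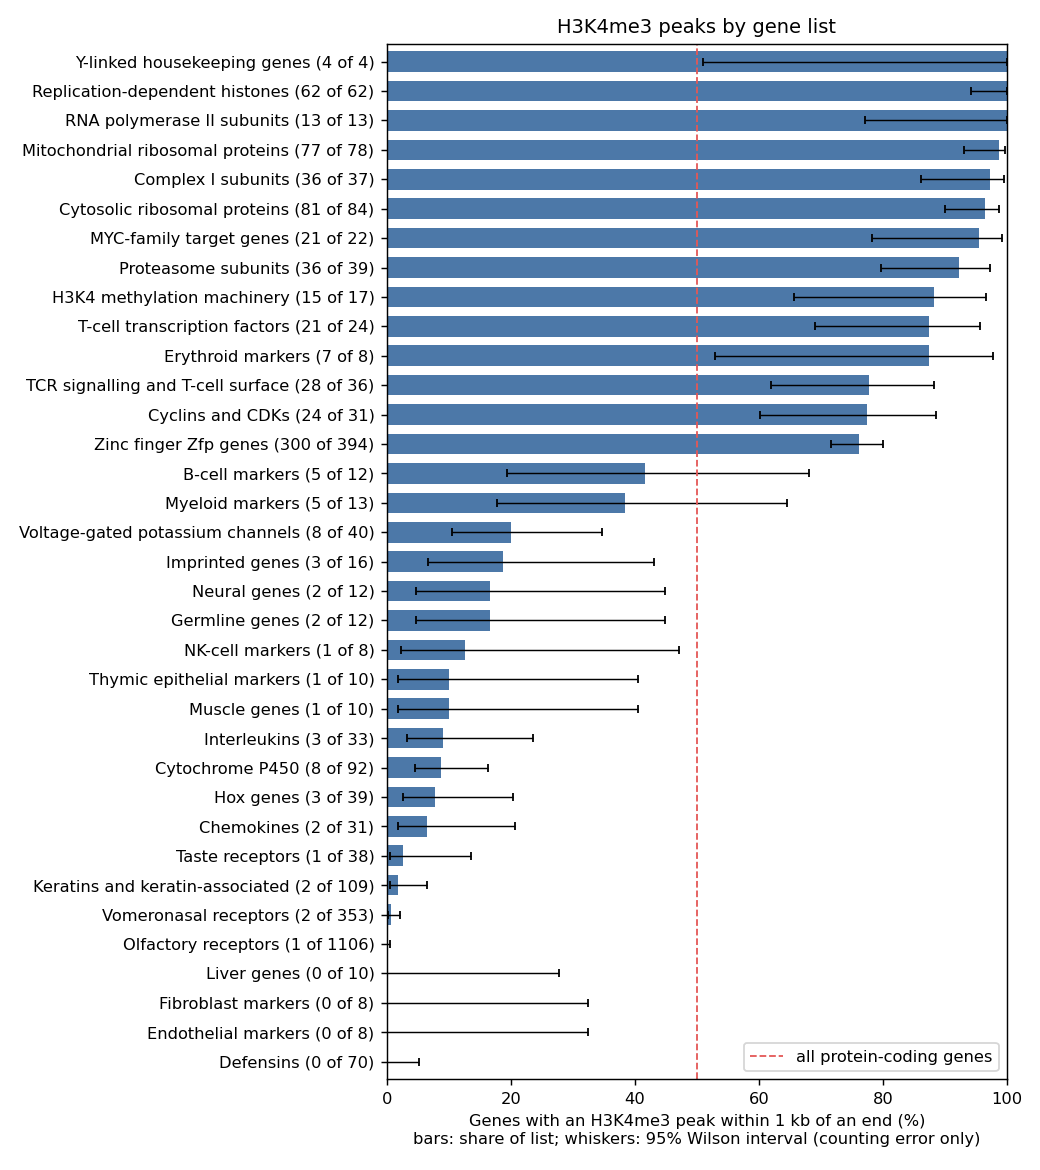
Share of genes with an H3K4me3 peak within 1 kb of an end (horizontal axis, percent) in 35 gene lists, each with the number of members that had one. Bars give the share, whiskers the 95% Wilson interval, and the dashed line the 50% of all protein-coding genes. Lists of basic cell functions and T-cell genes lie right of the line, and sensory receptors, keratins, Hox genes and tissue genes lie left of it.

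Some families that were mostly empty, against 50% of all protein-coding genes with a peak at an end, held a member with a strong peak. Of 39 Hox genes 3 had a peak at an end: Hoxb4, a gene of blood stem cells, with 29.5-fold and 2680 bp, Hoxd4 with 8.64-fold and 1921 bp, and Hoxa13 with 210 bp (3.97-fold). Both larger peaks overlapped EZH2, SUZ12 and H3K27me3 peaks as well as H3K27ac. Of 40 voltage-gated potassium channel genes 8 had a peak, the highest and widest of them Kcna3, which encodes the lymphocyte channel Kv1.3 (45.7-fold, 7547 bp). Of 33 interleukin genes 3 had a peak, Il17d (18.8-fold), Il7 (7.24-fold) and Il12a (3.18-fold), and Il16 had a peak of 4872 bp (38.0-fold) inside the gene at a RefSeq transcript start. Of 31 chemokine genes 2 had a peak, Ccl25 in a peak shared with Elavl1 and Cxcl5 with 3.89-fold. Of 92 cytochrome P450 genes 8 had a peak, with a median of 9.03-fold. Of 16 imprinted genes 3 had a peak at an end, namely Igf2r (19.4-fold, 1939 bp), Kcnq1ot1, an antisense RNA within Kcnq1 (16.9-fold, 3319 bp), and Dlk1 (4.23-fold, 216 bp). Gnas and Snrpn had peaks inside (27.6- and 12.9-fold), and H19, Igf2, Peg3, Mest, Meg3 and Cdkn1c had none.

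Antigen receptor genes are assembled in T and B cells by joining V, D and J segments. Over all these loci 46 of 82 J segments (56.1%) and 13 of 394 V segments (3.30%) had a peak at an end, and the loci differed. The share over RefSeq genes of every class was 28.5%. In the T-cell receptor beta locus all 13 J segments had a peak, through 2 wide peaks of 7129 bp (22.3-fold) and 4284 bp (34.2-fold), and 3 of 22 V segments did, Trbv12-1, Trbv12-2 and Trbv15. In the alpha locus 20 of 51 J segments had a peak, through 4 peaks, among them Traj18 and Traj19 under a peak of 8534 bp (18.4-fold) and Traj47 and Traj50 under a peak of 2842 bp (19.4-fold), and 6 of 114 V segments did, of which Trav8-1 had the highest (21.5-fold). All 8 J and C genes of the gamma locus had a peak, through 5 peaks, and none of 5 delta D, J and C genes did. Gamma V segments were not counted as a list, and the gamma peak of 13351 bp also overlapped Trgv1 and Trgv2. In the immunoglobulin heavy locus Ighm and the 4 J segments had peaks, with 7.08-fold across 5878 bp for 4 of the 5 genes. None of 120 heavy V and 102 kappa V segments had a peak (upper bounds 3.10 and 3.63%). Segments under a single peak are not independent, so the counts over J segments rest on a few peaks.

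Non-coding classes differed in the share of genes with a peak and in how often that peak also reached a protein-coding end. The share with a peak at an end was 28.5% over RefSeq genes of every class and 50% over protein-coding genes. Of 12727 long non-coding RNA genes 2016 (15.8%, 15.2 to 16.5%) had a peak at an end, and for 698 of these (34.6%) that peak reached no protein-coding end. Among the highest peaks of this class farther than 10 kb from a protein-coding end were those at Chaserr (48.7-fold, 5111 bp), the RNA next to Chd2, and at Snhg5 (43.3-fold) and Snhg17 (40.8-fold), which host small nucleolar RNAs. Of 9944 pseudogenes 476 (4.79%) had a peak, with a median width of 402 bp and a median of 7.57-fold, and for 388 of those pseudogenes (81.5%) the peak reached no protein-coding end. Of 408 tRNA genes 199 (48.8%, 44.0 to 53.6%) had a peak, with a median of 20.7-fold, and for 139 of the 199 the peak reached no protein-coding end. A cluster on chromosome 3 with genes for alanine, arginine and tyrosine tRNAs lay under a peak of 1758 bp (32.5-fold), 14771 bp from the nearest protein-coding end. Transfer RNA genes are transcribed by RNA polymerase III. Of 1340 small nucleolar RNA genes 163 (12.2%) had a peak, with a median of 38.0-fold. For only 23 of the 163 (14.1%) did the peak reach no protein-coding end, so that most of these peaks also lay at protein-coding ends. Of 1004 small nuclear RNA genes 58 (5.78%) had a peak, and for 28 of the 58 it reached no protein-coding end.

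Of 1228 microRNA genes 186 (15.1%, 13.3 to 17.3%) had a peak at an end, against 28.5% of RefSeq genes of every class. For 29 of those 186 genes the peak lay farther than 10 kb from any protein-coding end. Among these 29 genes, several of which share a peak, were members of the Mir17 and Mir106a clusters of the miR-17 family, whose members are known oncogenic and MYC-regulated microRNAs. Their mature sequences are shown because these clusters repeat the same seeds. The sequences are from RefSeq (GRCm38.p6), 5′ to 3′, with the seed (bases 2 to 8) in capitals. On chromosome 14 (plus strand, chr14:115043684-115044496) the Mir17 cluster holds:
mmu-miR-17-5p: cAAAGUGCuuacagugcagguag
mmu-miR-20a-5p: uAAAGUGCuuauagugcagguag
mmu-miR-18a-5p: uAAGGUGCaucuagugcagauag
mmu-miR-19a-3p: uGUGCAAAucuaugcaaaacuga
mmu-miR-19b-3p: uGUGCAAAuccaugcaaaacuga
mmu-miR-92a-3p: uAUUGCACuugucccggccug
On chromosome X (minus strand, chrX:52741697-52742563) the Mir106a cluster repeats the 19b and 92a sequences and holds:
mmu-miR-106a-5p: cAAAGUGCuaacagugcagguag
mmu-miR-20b-5p: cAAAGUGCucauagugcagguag
mmu-miR-18b-5p: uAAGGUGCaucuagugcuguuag
mmu-miR-363-3p: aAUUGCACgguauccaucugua
Seed AAAGUGC is shared by miR-17, miR-20a, miR-106a and miR-20b, AAGGUGC by miR-18a and miR-18b, GUGCAAA by miR-19a and miR-19b, and AUUGCAC by miR-92a and miR-363. The peak at the Mir17 cluster, chr14:115039973-115043706, was 3734 bp wide with 28.0-fold and ended at the last base of mature miR-17-5p, so that the other 5 genes of the cluster lay 145 to 721 bp beyond its edge. It was 48495 bp from the nearest protein-coding end. The peak at the Mir106a cluster, chrX:52743088-52745817, was 2730 bp wide with 26.2-fold and lay 521 bp upstream of Mir106a. A further peak of 288 bp (4.93-fold) lay between them.

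Of the 1314 peaks farther than 10 kb from any gene end, 924 (70.3%) lay inside a protein-coding gene and 340 (25.9%) in no RefSeq gene. In 250 (19.03%) the peak was within 1 kb of a further transcript start in the promoter table. That share was 43.0% of the 393 far peaks of 10-fold or more and 8.79% of the 921 below. Far peaks at such a start had a median of 15.9-fold and 2038 bp, and far peaks at no known start 5.39-fold and 549 bp. The highest far peaks lay inside Taok1 (48.5-fold), Ccm2 (45.7-fold), Tacc1 (44.7-fold), Bicral (43.7-fold) and Cdyl (43.4-fold), and those of Taok1, Ccm2 and Cdyl were at a known start. The widest far peaks lay in Ets1, in Fyb, the T-cell adaptor ADAP (7379 bp), in Zfp217 (5802 bp), in Frmd4a (5749 bp) and in Bcor, a transcriptional corepressor (5608 bp). Of the peaks in no gene, the highest was 38.1-fold over 2730 bp at chr1:86486685-86489414, 12665 bp from any gene end. H3K27ac overlapped 85.5% of far peaks, 61.2% of those at 1 to 10 kb and 87.9% of those at an end. EZH2 overlapped 18.8%, 14.4% and 63.9%, N-MYC 25.6%, 15.5% and 55.7%, and p300 41.2%, 23.2% and 66.8%.

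By chromosome, H3K4me3 peaks were densest on chromosomes 11, 19 and 17, which hold 13.2, 12.1 and 11.2 protein-coding genes per Mb, and sparsest on the sex chromosomes. Chromosome 7, with the most protein-coding genes per Mb (13.97), had 8.18 peaks per Mb. Chromosome 11 had the most peaks per Mb, 11.7 (1421 peaks), followed by chromosome 19 with 9.94 and chromosome 17 with 9.17. Chromosomes 1 and 3 had the fewest of the autosomes, 4.83 and 4.84. Chromosome X had 2.72 per Mb. Relative to genes the autosomes were closer together, from 58.6 peaks per 100 protein-coding genes on chromosome 7 to 92.6 on chromosome 12, with 48.1 on X. The share of protein-coding genes with a peak was 51.4% on the autosomes, from 40.6% (38.5 to 42.8%) on chromosome 7 to 59.6% (55.9 to 63.3%) on chromosome 12. It was 33.2% (30.3 to 36.3%) for 966 genes on X, 0.647 times the autosomal share. Without olfactory and vomeronasal receptor genes chromosome 7 stood at 51.0% and chromosome 2 moved from 49.8% to 59.4%, while X stood at 33.5%. X-linked genes that had a peak had a median of 22.6-fold and 1859 bp, against 26.9-fold and 2538 bp for autosomal genes. The part of X copy number in these X values was not tested.

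**Figure D5:**
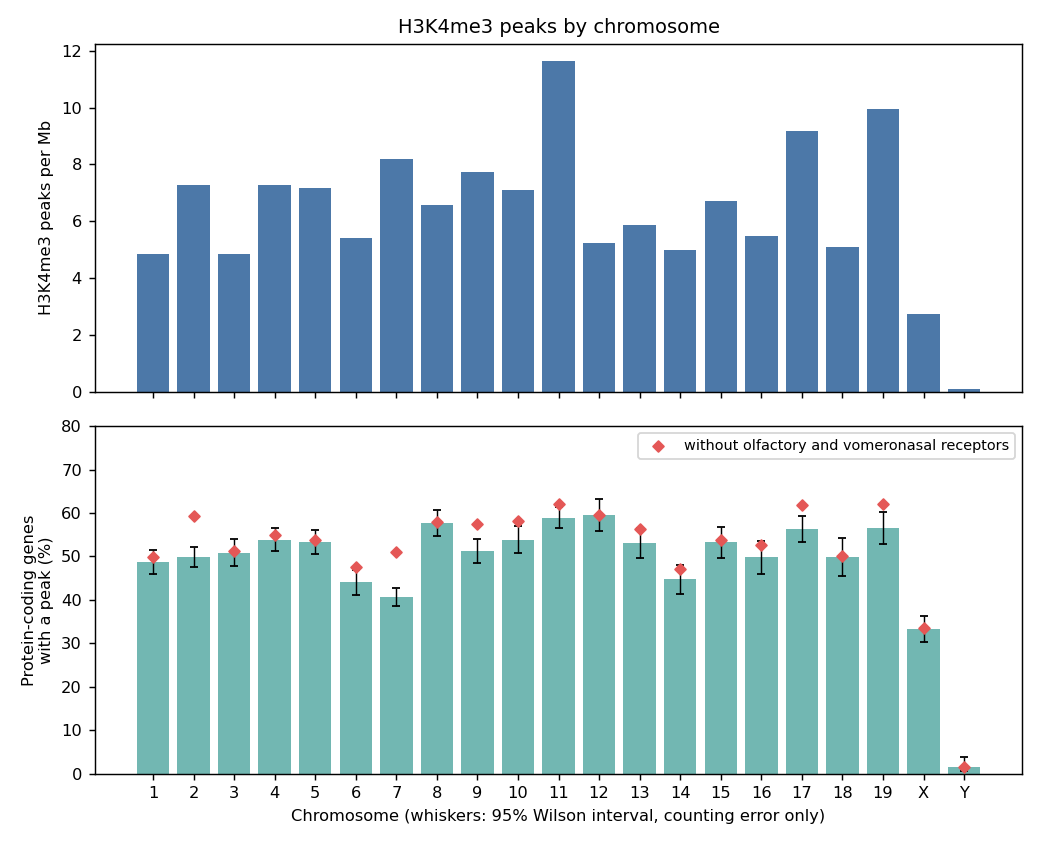
H3K4me3 peaks per Mb between the first and last gene of each chromosome (upper panel) and the percent of protein-coding genes with a peak within 1 kb of an end (lower panel, bars with 95% Wilson intervals). Diamonds leave out olfactory and vomeronasal receptor genes. Chromosome 11 is the densest at 11.7 peaks per Mb, and X and Y lie below every autosome in both panels.

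The Y chromosome had 9 peaks. Of its 256 protein-coding genes 4 had a peak at an end (1.56%, 0.609 to 3.95%), Kdm5d (22.0-fold), Uty (21.0-fold), Eif2s3y (18.7-fold) and Ddx3y (17.9-fold). These single-copy genes encode a histone demethylase, a protein related to histone demethylases, a translation factor and an RNA helicase and lie on the short arm. The other 5 peaks overlapped no RefSeq gene and had 3.71- to 15.3-fold. Most genes of the long arm belong to repeated families, for which the placing of reads is not given in the sources used here.

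Peaks were also uneven within chromosomes. The densest Mb was on chromosome 10, from 80000001 to 81000000, with 76 peaks and 45 of 53 protein-coding genes with a peak, among them Polr2e, Gpx4 and Stk11. Both neighbouring Mb of the major histocompatibility complex, chromosome 17 from 34000001 to 36000000, were among the 10 densest, with 54 and 49 peaks. Leaving out Y, with its 9 peaks, the longest stretch between neighbouring peaks was 9.92 Mb on X (113185709 to 123102935), with 14 protein-coding genes including Dach2 and Pcdh11x. The next were 9.89 Mb on chromosome 15 with the cadherins Cdh6, Cdh9, Cdh10 and Cdh12, and 9.48 Mb on chromosome 3 with Pcdh10 and Pcdh18. Members of the cadherin superfamily were also in peak-free stretches of 8.27 Mb (Pcdh9) and 7.55 Mb (Pcdh8 and Pcdh17) on chromosome 14. Other long stretches held other genes, such as 8.60 Mb on chromosome 5 (Adgrl3, Tecrl and Epha5) and 7.42 Mb on chromosome 14 (Slitrk1, Slitrk5 and Slitrk6). The share of cadherin genes that lie in such stretches was not counted. No olfactory or vomeronasal receptor gene lay in the 10 longest stretches of the autosomes and X.

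Set beside the other lists at gene level, genes with and without an H3K4me3 peak at an end differed as follows. H3K27ac had a peak at an end of 93.5% (93.0 to 94.0%) of the genes with an H3K4me3 peak and 11.3% (10.7 to 11.9%) of those without. For p300 the shares were 76.1% and 0.676%, and for N-MYC 63.4% and 0.567%. EZH2 had a peak at 72.2% and 16.3%, whereas SUZ12 had 10.6% and 17.0% and H3K27me3 16.5% and 38.6%. Of 9889 genes with no H3K4me3 peak at an end or inside, 5419 (54.8%) had a peak of none of the other 6 lists at an end, 3571 (36.1%) had H3K27me3 and not H3K27ac, and 892 (9.02%) had H3K27ac. These lists come from the same kind of cells but each from its own antibody and library, and differ in size from 9798 peaks (N-MYC) to 123056 (H3K27me3).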

How the data were processed

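ChIPmentation libraries of MYCN-driven T cell lymphoma cells were grouped by the antibody in their titles, with 1 library for each of 7 antibodies. The 2 inputs were not analysed here. Per the labels' protocols and the submitters' processing notes, the tools were FastQC, Bowtie2, SAMtools, MACS2 and deepTools with build mm10 (GRCm38), with no versions. Parameters and filters are not given in the sources used here.

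Each deposited list gives per peak its coordinates, a score, the authors' fold enrichment (a ratio), the −log10 p-value and −log10 q-value, and a summit. The authors' scores and p-values were not used. Read depth is unknown. Starts were converted to count from 1.

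Peaks were compared with RefSeq genes (GRCm38.p6) by an overlap of at least 1 bp with the 1 kb either side of a gene end. The start alone had been the plan. Strand, taken from the RefSeq promoter table, was known for 79.9% of protein-coding genes, under the 80% required, so either end was used. Far means over 10 kb from any end, and wide and narrow are the widest and narrowest 5%. With 1 library no test was possible. Intervals are 95% Wilson intervals and cover counting error only. Members, lists and thresholds were chosen with earlier results of these data known. The histone pattern was changed to current symbols, and the antigen receptor lists, CpG limits and motifs were chosen, after the files were seen. Named genes, apart from some not reported here, are every T-cell, H3K4, imprinted and Y-linked member, up to 5 exceptions of lists at 80% or more or 20% or less, the 2 highest and 2 widest of other lists, and the 10 widest, 10 highest and 5 widest and 5 highest far peaks; other marker genes, the gene of each CpG class, non-coding genes and genes in peak-free or dense stretches were named after their values were seen. Interval code was tested on simulated data. Python 3.11.15, pandas 2.3.3, NumPy 2.4.6, SciPy 1.17.1 and matplotlib 3.10.9 were used.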

Additional observations from a re-analysis of the deposited data

How the results depend on the processing

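Alternative settings were tried for 6 results. The share of protein-coding genes with a peak at an end (50%) was 48.5% within 500 bp, 55.1% within 5 kb, 45.7% with the summit in the window and 53.6% without olfactory and vomeronasal receptors. It stayed inside its interval at a q-value of at most 1e-05 (49.5%) and for gene starts alone (49.6%, an alternative chosen after seeing the data). The share of peaks at a gene end (68.2%) was 64.1% within 500 bp, 87.5% within 5 kb, 74.4% at the stricter q-value, 62.9% by summit, 59.8% with protein-coding genes alone, 79.4% with peaks within 1 kb merged and 51.1% for starts of genes with strand (chosen after seeing the data). The share of far peaks (7.78%) was 7.32% at the stricter q-value, 12.5% beyond 5 kb, 1.07% beyond 50 kb and 15.8% with protein-coding genes alone, and 7.99% with peaks merged, inside its interval. The ratio of median widths (5.02) was 3.38 at the stricter q-value, 2.42 with peaks merged, which joins small peaks to their neighbours, and 3.98 for starts (chosen after seeing the data). For the ratio of X to autosomes, all 5 alternatives gave values within 10% of 0.647, from 0.606 to 0.643, and for the CpG difference all 3 gave 17 or 18. The stricter q-value left 14781 of 16899 peaks (87.5%). No paired analysis was possible because there was 1 library per antibody. Depth is unknown, so small peaks may be missing, and a lack of a peak does not show a lack of the mark. Wilson intervals say nothing of how another library would differ.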
